A study of Caenorhabditis elegans with 6 samples.

Results

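Nuclear pore complex and nuclear transport genes were examined in the RNA of AB and P1, the anterior and posterior cells that arise from the first division of the *C. elegans* zygote. The members were the gene models whose public name is *npp*, *imb*, *ima*, *xpo*, *ran*, *nxf* or *nxt* followed by a number. This rule took 39 of the 20240 gene models in the table, of which 22 were nucleoporins and 17 were transport factors. All 39 were among the 7945 present gene models, which are those with reads in both cells and more than 10 normalized read counts on average. Wild-type N2 worms were grown to gravid adults at 20 °C on *E. coli* OP50, and 2-cell embryos were freed of their eggshells with bleach and a chitinase and chymotrypsin solution. AB and P1 were separated by hand with a mouth pipette, and matched cells were pooled into 3 replicates of each cell, so that each library is a pool of cells from many embryos. No library was treated, and the labels of the groups differ in the cell alone. According to the paper, samples were sequenced on different Illumina instruments and to different read lengths. The labels used here do not say which library had which. RNA was amplified by in vitro transcription before sequencing (RNA-amp-seq). The question was whether the RNAs of the pore and of its carriers are shared evenly between the sister cells.

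The nuclear pore complex is a channel through the nuclear envelope built from many copies of each of its nucleoporins. A scaffold made of the Y complex and the inner ring is anchored by membrane proteins, and it holds nucleoporins with phenylalanine-glycine (FG) repeats that fill the central channel and extend to the cytoplasmic and nuclear sides. Import receptors of the importin beta family bind cargo in the cytoplasm, directly or through importin alpha, and release it in the nucleus on binding Ran loaded with GTP. Export receptors bind cargo together with Ran-GTP, and mRNA leaves through a separate receptor, NXF1 with NXT1 in mammals. In the early *C. elegans* embryo the envelope is taken down and rebuilt at each rapid division, and the RNAs for this machinery at the 2-cell stage were supplied by the mother.

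Library totals ran from 21249850 to 35591254 reads, and 3 reads, the floor used here, corresponded to 0.0843 to 0.141 CPM. The members together took 1.44% to 1.69% of the reads in the AB libraries and 1.36% to 1.47% in the P1 libraries, and the groups overlapped. One library stood apart. Over the present genes the correlation of log2 values of P1 replicate 1 with the other libraries was 0.911 to 0.924, against 0.951 to 0.980 among the remaining libraries, and the fold changes and calls below were also computed without it. The AB marker *mex-3* was AB-enriched (log2 fold change -0.98, SE 0.25, edgeR adjusted P = 0.0675), and the P1 markers *pos-1*, *cey-2* and *nos-2* were higher in P1 by 0.18, 0.47 and 0.40 without passing the threshold. Sperm markers (5 of 5 *msp* genes) were at 0 reads in all libraries. How reads that align to several similar genes were counted was not tested, so these values do not show that sperm RNA was absent. The yolk genes *vit-2*, *vit-5* and *vit-6* summed to between 2.22 and 255 normalized read counts in AB and between 0.97 and 291 in P1, with the highest sum of each cell in replicate 1, and their part in the results was not tested. Values are relative to each library's own reads, so a smaller number of cells and less RNA per cell cannot be told apart.

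The pore and transport RNAs were abundant in both cells. Levels of different genes are given as normalized read counts per kb of spliced length. The RNA was amplified from an oligo-dT primer, and whether reads scale with spliced length after this step was not tested. Levels per kb of short and long genes may therefore not be comparable. The median member was at 2755 per kb, against 831 for the median present gene, and 37 of 39 members lay above that value, the exceptions being *npp-7* and *nxf-1*. The median member stood at percentile 77.7 of the present genes.

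**Figure D1:**
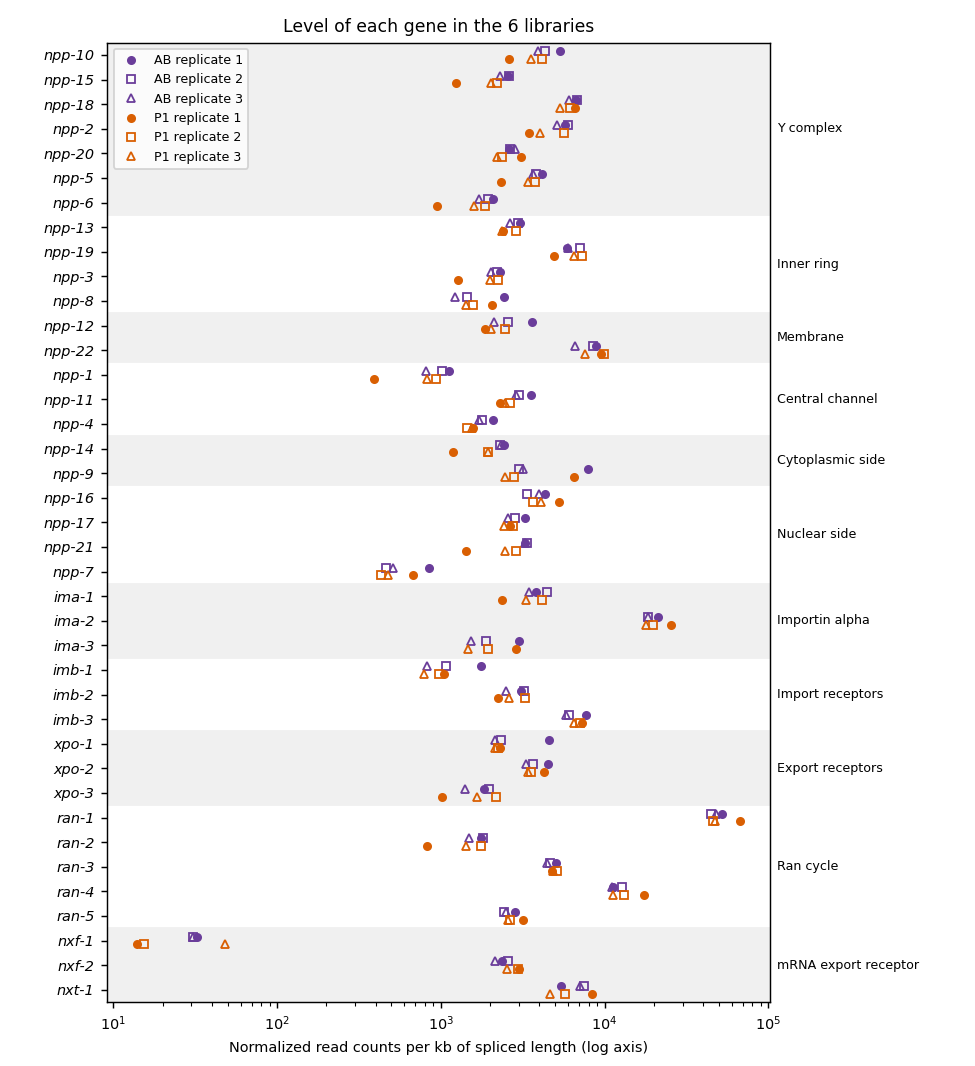
Normalized read counts per kb of spliced length (log axis) of the 39 genes, grouped by role, with 1 point for each library of AB (purple) and P1 (orange). *ran-1* was highest at a mean of 50802 per kb and *nxf-1* lowest at 28.5 per kb. P1 replicate 1 (filled orange circles) was the lowest library for 17 of the 39 genes and the highest for 8, against 37.3% and 33.3% of the present genes.

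*ran-1*, the small GTPase Ran itself, was the highest member, at 48102 ± 3636 per kb in AB and 53501 ± 11957 in P1 (SD, n = 3). *ima-2*, an importin alpha that works in the germ line and early embryo, followed at 19384 ± 1511 per kb in AB and 20980 ± 3954 in P1. *ran-4*, the orthologue of NTF2, which carries Ran-GDP back into the nucleus, came next at 11746 ± 915 and 13917 ± 3168 per kb. Per kb of spliced length the ranges of these 3 genes over the 6 libraries did not overlap each other. Those of *ima-2* (lowest 17862) and *ran-4* (highest 17407) nearly met. The range of *ran-4* lay above that of *npp-22* (NDC1), which had the highest level of the nucleoporins at 8520 per kb. From there the order ran on through *imb-3*, *nxt-1*, *npp-18*, *npp-19*, *npp-2* and *ran-3* to *npp-1* (852 per kb) and *npp-7* (567 per kb). Of the 38 neighbouring pairs in the whole order, only 4 had ranges that did not touch, the fourth being *npp-7* above *nxf-1*. The order between most neighbours is therefore not resolved beyond the spread of the libraries. With coding length in place of spliced length the order had a Spearman correlation of 0.967 with the first across the 39 genes, which are not independent replicates. The largest move was that of *ima-3*, from rank 28 to rank 18. With coding length *ima-2* and *ran-4* came closer, at means of 22843 and 20421 per kb. Ranges were not compared with coding length. Both orders divide by a length. Before division, *ran-4* (635 bp) averaged 7458 normalized read counts in AB and 8837 in P1, against a median of 8094 over the members.

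Partners in a pathway were present at unequal levels per kb, with the same limit on genes of different length. *ran-1* was 10.6 ± 1.8 times as high per kb as *ran-3* (SD, n = 6), which encodes the exchange factor RCC1, and 3.99 ± 0.46 times as high as *ran-4*. Its ratio to *ran-2*, the gene for the Ran GTPase-activating protein, was 24.6 to 33.2 in 5 libraries and 81.7 in P1 replicate 1. *xpo-2*, the orthologue of CAS, which returns importin alpha to the cytoplasm, was at 0.188 ± 0.016 times the level of *ima-2*, with all 6 libraries between 0.168 and 0.212. *ima-2* was 4.14 to 10.8 times as high as *ima-1* and 7.03 to 12.2 times as high as *ima-3*, so it was the leading importin alpha RNA in every library.

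No member was called enriched in AB or in P1. A call needed an adjusted P under 0.10 from edgeR's quasi-likelihood test over 13717 gene models, and among the present genes 0.604% were called AB-enriched and 0.856% P1-enriched. The adjusted P of the 39 members ran from 0.601 to 0.985. At an unadjusted P under 0.05 there was 1 member (2.56%), *npp-21*, against 10.4% of the present genes. DESeq2 called none and had none at an unadjusted P under 0.05, against 8.66% of the present genes. Depth was high for these genes, and every member but *nxf-1* averaged at least 2129 normalized read counts in each cell.

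The differences that were measured were small. The fitted log2 fold change of P1 over AB lay within 0.30 of 0 in 27 of 39 members and was nowhere larger than 0.56 in size. The 95% intervals of 38 members included 0, and those of 36 members lay between -1 and 1, that is, within a doubling or halving. The remaining 3 were *npp-1*, *npp-21* and *nxf-1*, and the bounds of the last pair reached -1.09 and -1.62. These intervals do not show that the RNAs were equal in the sister cells. They are not adjusted for the number of genes tested. After adjustment even the -0.56 of *npp-21* could not be told from none (edgeR adjusted P = 0.601). Without P1 replicate 1 the estimates of 29 members, 16 of them nucleoporins, moved by more than 1.5 times or changed sign, and without pair 1 those of 33. Leaving out any other library moved 13 to 21 members in this sense. Without pair 2 and without pair 3 it was 16 and 12.

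The estimates were mostly below 0, towards AB. The median log2 fold change was -0.19 over the 39 members, of which 30 (76.9%) were lower in P1, against a median of 0.01 over the present genes, of which 48.7% were lower. Nucleoporins had a median of -0.28 (20 of 22 lower), and transport factors of -0.04 (10 of 17 lower). The median of the members was -0.10 without AB replicate 1. The members were chosen as a list with earlier results known, so these are counts and medians with no test. The 3 AB values lay above the 3 P1 values without overlap in 5 members (12.8%), which were *npp-4*, *npp-11*, *npp-14*, *npp-15* and *npp-21*, against 8.81% of the present genes. No member had P1 above AB in this sense, against 7.1% of the present genes.

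**Figure D2:**
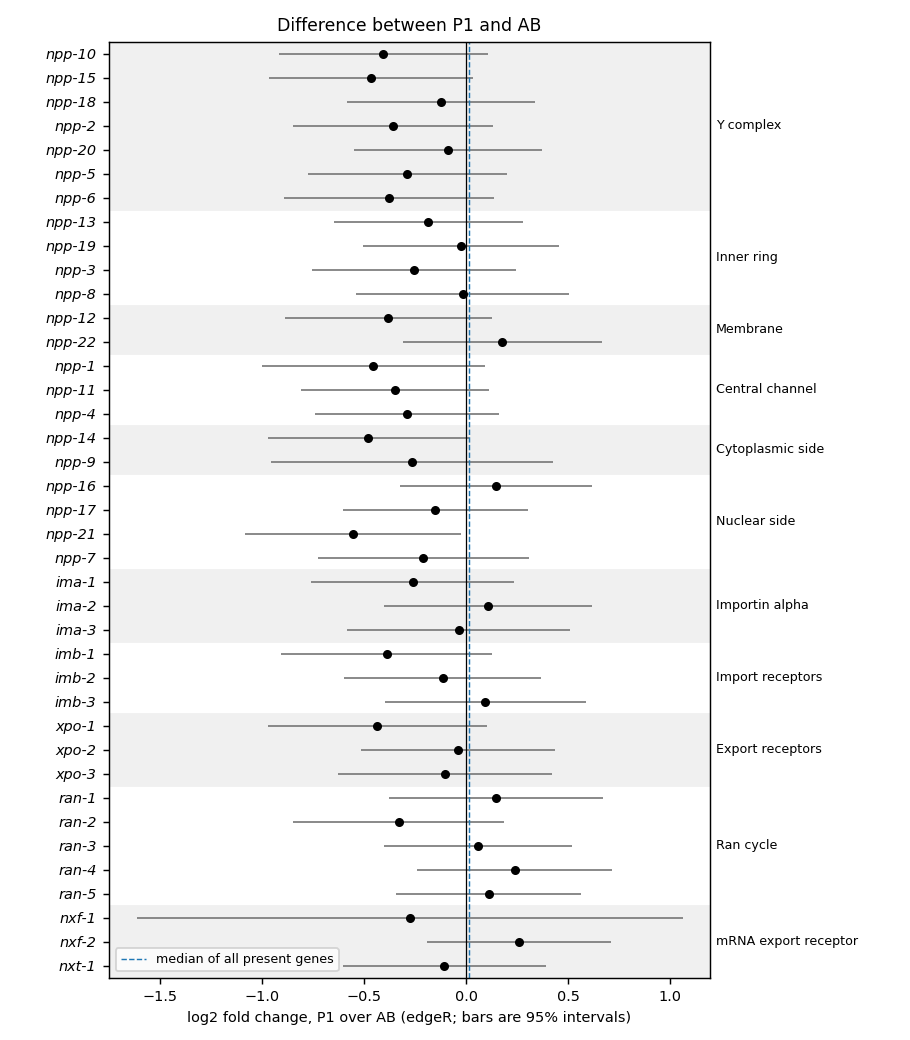
Fitted log2 fold change (P1 over AB) of each of the 39 genes with its 95% interval (edgeR, 3 libraries of each cell), grouped by role, and the median of all present genes at 0.01 (dashed line). All 7 genes taken for the Y complex lie below 0, and the interval of *npp-21* alone does not include 0.

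The Y complex, the outer scaffold of the pore that is also found at kinetochores in mitosis, had a median log2 fold change of -0.36. All 7 of its genes that the name rule took were below 0. The groups by role hold only such genes, so this complex and the other groups may lack subunits. None passed the test (adjusted P 0.668 to 0.917). *npp-15* (Nup133, chromosome III, 7928984 to 7932928 in ce10) had 9386, 9440 and 8393 normalized read counts in AB replicates 1, 2 and 3 and 4467, 7961 and 7303 in the P1 replicates. Every P1 library was below every AB library, and P1 replicate 1 was the farthest below. The fold change was -0.47 (SE 0.24, adjusted P = 0.668), and -0.27 without P1 replicate 1. *npp-10*, whose product is cleaved into the Y-complex subunit Nup96 and the FG nucleoporin Nup98 (chromosome III, 6013487 to 6018461), had 28692, 23349 and 21134 in AB and 14038, 22279 and 19002 in P1. The groups overlapped, since P1 replicate 2 exceeded AB replicate 3, and the fold change was -0.41 (SE 0.25, adjusted P = 0.686). *npp-6* (Nup160), *npp-2* (Nup85) and *npp-5* (Nup107) were at -0.38, -0.36 and -0.29, and at -0.16, -0.24 and -0.13 without P1 replicate 1. The small subunits *npp-18* (Seh1) and *npp-20* (Sec13), which are also the shortest of the complex, were at -0.12 and -0.09, and the latter turned to 0.05 without pair 3. Within pairs the Y complex was at a median of -0.82, -0.09 and -0.20 in pairs 1, 2 and 3, so most of its size came from pair 1.

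The inner ring, which lines the scaffold next to the membrane, was nearer to 0, with a median of -0.11 over its 4 members. *npp-3* (Nup205) was at -0.26, *npp-13* (Nup93) at -0.19, *npp-19* (Nup35) at -0.03 and *npp-8* (Nup155) at -0.02, with adjusted P of 0.746 to 0.985. The sign of *npp-8* turned to 0.03 with the replicate number as a block, and both it and *npp-19* changed sign in fits that left out libraries.

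The membrane nucleoporins lay on opposite sides of 0. *npp-12*, which encodes gp210, was at -0.38 (SE 0.25, adjusted P = 0.691), and at -0.17 without AB replicate 1 and -0.067 without pair 1. *npp-22*, the transmembrane nucleoporin NDC1 (chromosome V, 11731103 to 11733454), had 17309, 16774 and 12972 normalized read counts in AB and 18791, 19629 and 14971 in P1. It was higher in P1 in all 3 pairs, by 0.12, 0.23 and 0.21, while the groups overlapped. The fold change was 0.18 (SE 0.24, adjusted P = 0.800).

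The 3 genes of the central channel, whose FG-repeat products form a subcomplex, had a median of -0.35. *npp-1* (Nup54, chromosome IV, 9858466 to 9862087) had 3324, 3012 and 2417 in AB and 1165, 2786 and 2435 in P1. P1 replicate 1 was far below the rest, and the other P1 libraries lay within the range of AB. The fold change of -0.46 (SE 0.27, adjusted P = 0.686) was -0.18 without P1 replicate 1 and -0.06 without pair 1. *npp-11* (Nup62) and *npp-4* (Nup58) were at -0.35 and -0.29, and they were lower in P1 in all 3 pairs with no overlap between the groups.

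On the cytoplasmic side *npp-14*, the orthologue of Nup214 (chromosome I, 9660170 to 9664904), had 10523, 10023 and 10094 normalized read counts in AB and 5134, 8444 and 8440 in P1. The AB libraries agreed closely, and all P1 libraries lay below them. The fold change was -0.48 (SE 0.24, adjusted P = 0.647), with an interval of -0.97 to 0.01. It was -0.30 without P1 replicate 1. *npp-9*, the orthologue of Nup358 (RanBP2), varied by replicate number more than by cell. It had 24023, 9062 and 9513 in AB and 19736, 8419 and 7407 in P1, so that both replicate 1 libraries were at least 2.07 times as high as any other library. Its fold change of -0.27 (SE 0.34, adjusted P = 0.779) became -0.86 with an adjusted P of 7.0e-05 when P1 replicate 1 was left out and 0.32 (adjusted P = 0.871) when AB replicate 1 was left out. Leaving out the whole of pair 1 gave -0.24 (adjusted P = 0.802). The ratios within pairs were -0.28, -0.11 and -0.36.

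On the nuclear side *npp-21*, the orthologue of TPR, which forms the nuclear basket, had the largest difference of all members. It had 20007, 20439 and 19851 normalized read counts in AB and 8669, 17488 and 14964 in P1. The AB libraries varied by 1.51% (CV), whereas P1 replicate 1 was far below the other P1 libraries. The fold change was -0.56 (SE 0.26, unadjusted P = 0.0406, adjusted P = 0.601), with an interval of -1.09 to -0.03, which does not hold after adjustment. It was -0.33 without P1 replicate 1. *npp-7* (Nup153) and *npp-17* (Rae1) were at -0.21 and -0.15. *npp-16*, the orthologue of Nup50, which assists importin alpha in the nucleus, had 6981, 5448 and 6474 in AB and 8517, 5888 and 6607 in P1, and its fold change was 0.15 (SE 0.23, adjusted P = 0.843). Its groups overlapped although all 3 pairs were higher in P1.

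The importin alpha genes gave estimates around 0. *ima-2* (chromosome I, 6315233 to 6317269) had 38095, 33366 and 33388 normalized read counts in AB and 45846, 35429 and 32205 in P1, with a fold change of 0.11 (SE 0.25, adjusted P = 0.911). *ima-1* (chromosome V, 11239687 to 11241762), which like *ima-2* is expressed in the germ line, had 7351, 8623 and 6650 in AB and 4534, 7965 and 6397 in P1, with a fold change of -0.26 (SE 0.24, adjusted P = 0.746). *ima-3*, known for a role in oocyte meiosis, had 7854, 4962 and 4004 in AB and 7550, 5091 and 3821 in P1. The replicate 1 libraries of both cells were the highest for *ima-2* and for *ima-3*, and the fold change of *ima-3* was -0.04 (SE 0.27, adjusted P = 0.976).

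Among the import receptors, *imb-1* encodes importin beta (chromosome I, 4920773 to 4926234) and had 6193, 3793 and 2892 normalized read counts in AB and 3662, 3407 and 2772 in P1. Only AB replicate 1 stood above the rest. The fold change of -0.39 (SE 0.25, adjusted P = 0.691) passed the threshold without P1 replicate 1 (-0.49, adjusted P = 0.0703) and was -0.06 without AB replicate 1 and -0.12 without pair 1. *imb-3*, the orthologue of importin 5 (chromosome I, 310982 to 314990), had 28445, 22501 and 21493 in AB and 27194, 26133 and 24164 in P1. Per kb it had the highest level of the import and export receptors, 4.34 to 8.24 times that of *imb-1*, and its fold change was 0.09 (SE 0.24, adjusted P = 0.922). *imb-2* (transportin) was at -0.12.

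Of the export receptors, *xpo-1* encodes CRM1, the receptor for leucine-rich export signals. It had 19675, 10074 and 9329 normalized read counts in AB and 9932, 9672 and 9330 in P1, so that 5 libraries lay close together and AB replicate 1 was 1.95 times as high as the next. Its fold change was -0.44 (SE 0.26, adjusted P = 0.686) and -0.04 without AB replicate 1. *xpo-2* (chromosome I, 318547 to 323353) had 13880, 11357 and 10294 in AB and 13219, 10960 and 10473 in P1. Each pair was nearly level, at -0.07, -0.05 and 0.02, and the fold change was -0.04 (SE 0.23, adjusted P = 0.970). *xpo-3* (exportin-t, for tRNA) was at -0.11.

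The Ran cycle was the only role group with a median above 0, at 0.11, and 4 of its 5 members were above 0, but the median was -0.0088 without P1 replicate 1. *ran-1* had 49784, 42839 and 45768 normalized read counts in AB and 64505, 43785 and 45631 in P1, with a fold change of 0.15 (SE 0.26, adjusted P = 0.865). *ran-4* (chromosome I, 8591206 to 8591970) had 7170, 8127 and 7079 in AB and 11054, 8332 and 7127 in P1, with a fold change of 0.24 (SE 0.23, adjusted P = 0.746). For both genes P1 replicate 1 was the highest library, and the ratios of pairs 2 and 3 lay within 0.04 of 0. *ran-3* (chromosome II, 8322562 to 8325002) had 10966, 10023 and 9594 in AB and 10381, 11112 and 10476 in P1, with a fold change of 0.06 (SE 0.22, adjusted P = 0.954). *ran-2* (chromosome III, 7933560 to 7937638) was the exception in the group. It had 5915, 6136 and 4988 in AB and 2781, 5943 and 4836 in P1, and its fold change was -0.33 (SE 0.25, adjusted P = 0.713). Its ratios were -1.09 in pair 1 and -0.05 and -0.04 in the other pairs. *ran-5*, a gene for a Ran-binding protein, had 3640, 3130 and 3214 in AB and 4096, 3422 and 3300 in P1, with overlapping groups and a fold change of 0.11 (SE 0.22, adjusted P = 0.890).

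The mRNA export receptors differed most from each other in level. *nxf-1*, which is required for export of bulk mRNA in *C. elegans*, had 91, 86 and 86 normalized read counts in AB and 39, 43 and 134 in P1, from 29 to 138 raw reads. *nxf-2*, the neighbouring paralogue, had 3507, 3795 and 3167 in AB and 4445, 4380 and 3747 in P1, so that it was 52.9 to 214 times as high per kb as *nxf-1*. The models lie 21 bp apart on the same strand of chromosome V, *nxf-1* at 14412390 to 14415777, and annotated exons of other genes cover 6.99% of *nxf-1* and 7.83% of *nxf-2*. The strand setting of the counting is not given in the sources used here, and how reads were divided between the neighbours was not tested. *nxf-2* had the largest fold change towards P1 of all members, 0.26 (SE 0.22, adjusted P = 0.721), with all 3 pairs above 0 and overlapping groups. *nxf-1* was at -0.28 with the widest interval, -1.62 to 1.06. *nxt-1*, the gene for their small partner protein, had 3066, 4244 and 4010 in AB and 4722, 3221 and 2633 in P1. It was higher in P1 in pair 1 by 0.62 and lower in pairs 2 and 3, at -0.40 and -0.61, and its fold change of -0.11 (SE 0.24, adjusted P = 0.907) became -0.50 (adjusted P = 0.0336) without pair 1, which would be a call. That fit called 239 present genes AB-enriched, against 48 with all libraries.

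The ratios within pairs were then compared, since matched AB and P1 cells were pooled for each replicate number. In pair 1 the members' log2 ratios spread from -1.51 to 0.62, and 14 of 39 lay within 0.30 of 0, against 24.3% of the present genes. In pairs 2 and 3, 36 and 33 members lay within 0.30 of 0, against 66.2% and 63.6% of the present genes. The median of the members was -0.34, -0.06 and -0.06 in pairs 1, 2 and 3, and that of the nucleoporins -0.50, -0.08 and -0.13. Nucleoporins were lower in P1 in 19, 17 and 17 of 22 cases. Ratios were below 0 in all 3 pairs for 18 members (46.2%), against 21.4% of the present genes. These were 15 nucleoporins and *ima-1*, *imb-1* and *ran-2*. They were above 0 in all 3 pairs for 5 members (12.8%), against 19.1% of the present genes, namely *npp-16*, *npp-22*, *ran-4*, *ran-5* and *nxf-2*. Without pair 1, 18 of 22 nucleoporins were still below 0 but their median was -0.11, and the median of the members was -0.06, against -0.00066 over the present genes.

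**Figure D3:**
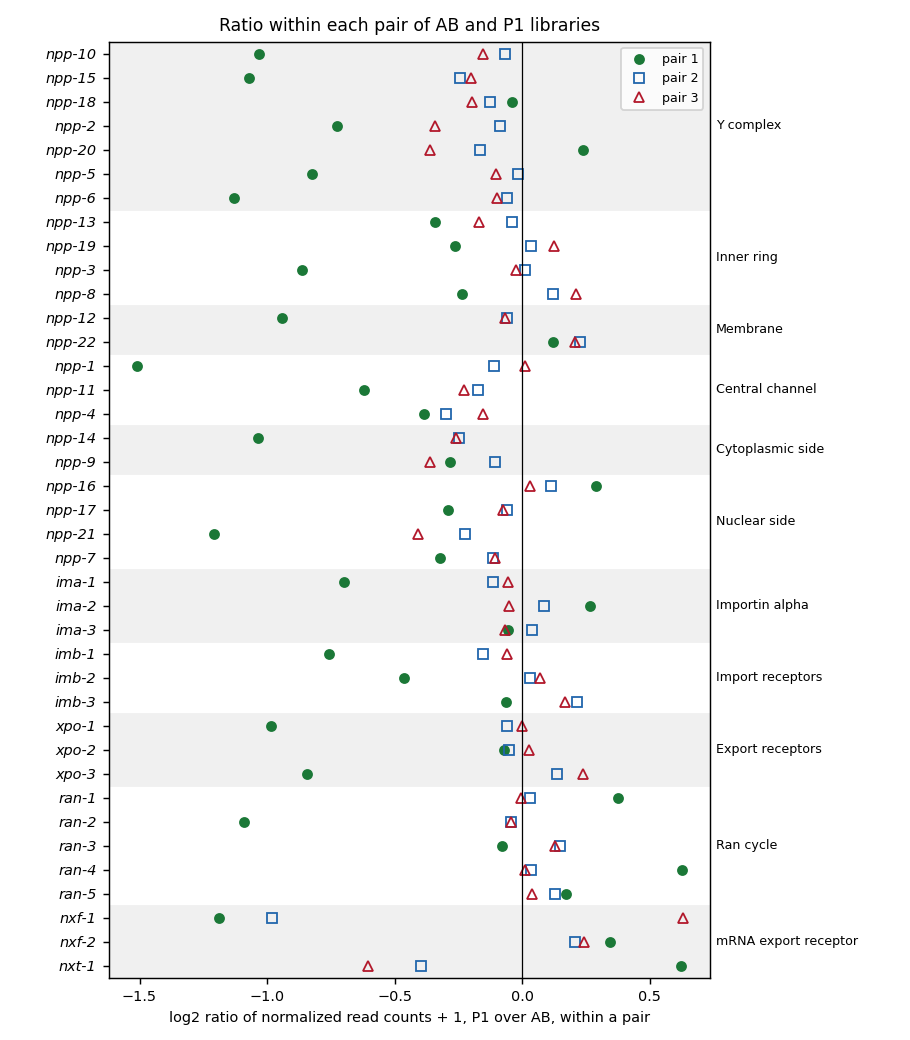
Log2 ratio of normalized read counts + 1 (P1 over AB) within each of the 3 pairs of libraries, for the 39 genes grouped by role. Pair 1 (filled circles) spreads from -1.51 to 0.62, while 36 genes in pair 2 and 33 in pair 3 lie within 0.30 of 0.

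The differences of pair 1 followed transcript length. Members were long, with a median spliced length of 2804 bp against 1546 bp for the present genes. Across the 39 members, which share the same 6 libraries, the Spearman correlation of the log2 ratio with spliced length was -0.73 in pair 1, -0.12 in pair 2 and -0.05 in pair 3. Across the present genes with a length it was -0.52, -0.04 and 0.04. The 8 members below -1 in pair 1 were *npp-1*, *npp-6*, *npp-10*, *npp-14*, *npp-15*, *npp-21*, *ran-2* and *nxf-1*, and all were 2804 bp or longer. P1 replicate 1 was the lowest library for 37.3% of the present genes and the highest for 33.3%. The 17 members for which P1 replicate 1 was the lowest library had a median length of 3378 bp. The 8 for which it was the highest, which include *ran-1*, *ran-4*, *ima-2*, *nxf-2* and *nxt-1*, had a median of 1216 bp and none exceeded 1803 bp. Among members of 3000 bp or more, 16 of 17 had a fitted fold change below 0 (median -0.33), as did 74.4% of 1125 present genes of that length (median -0.25). Among shorter members it was 14 of 22 (median -0.10), against 44.1% of 6681 present genes (median 0.06).

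**Figure D4:**
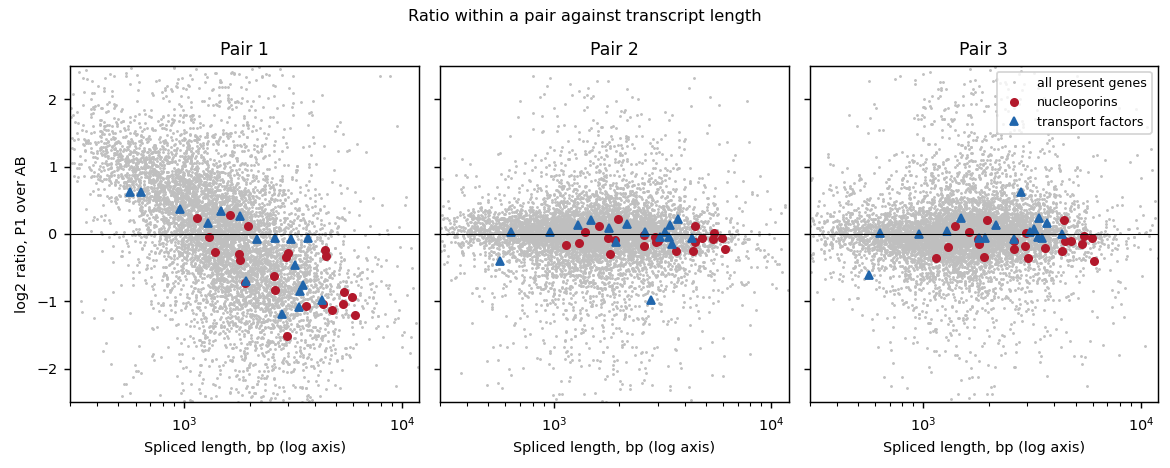
Log2 ratio (P1 over AB) within each pair against spliced length in bp (log axis), for all present genes (grey), nucleoporins (red circles) and transport factors (blue triangles). Points beyond the axes are not drawn. Members fall with length in pair 1 (Spearman -0.73) and not in pair 2 (-0.12) or pair 3 (-0.05).

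A straight line of the fitted fold change on log2 length over the present genes had a slope of -0.19 per doubling with all 6 libraries. The Spearman correlation of the fitted fold change with length was -0.39 over the present genes and -0.61 over the members. Without P1 replicate 1 it was -0.11 and -0.32, and without pair 1 it was 0.003 and -0.11, so the line depends on pair 1. Measured from this line, which was added after the data were seen, the members had a median deviation of -0.10, with 25 of 39 below it. The nucleoporins had -0.14 and the transport factors 0.02. How far length accounts for the position of the nucleoporins in these libraries was not tested.

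A further group of members followed the replicate number. In 10 members (25.6%) both replicate 1 libraries lay above the other 4, against 11.4% of the present genes. These were *npp-7*, *npp-8*, *npp-9*, *npp-16*, *ima-2*, *ima-3*, *imb-3*, *xpo-2*, *ran-1* and *ran-5*. The opposite held for *npp-19* only (2.56%, against 11.4%). For these genes AB and P1 of pair 1 moved together, most of all for *npp-9*. The part of sequencing instrument and read length, which are not given for each library, was not tested.

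Along the genome the members lay on chromosomes I (15), II (7), III (7), IV (5) and V (5), with none on X. Besides *nxf-1* and *nxf-2*, neighbours within 5000 bp were *imb-3* and *xpo-2* on chromosome I, 3556 bp apart, and *npp-15* and *ran-2* on chromosome III, 631 bp apart, each on the same strand. Their fold changes were 0.09 and -0.04, and -0.47 and -0.33. For 10 members the position in the files is that of a locus shared with other gene models, which for *xpo-1* numbers 160, so no position is given for these.

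Genes of the nuclear envelope and lamina that the name rule does not take were examined next. Of 15 such genes, 1 (6.67%) was AB-enriched, against 0.604% of the present genes, and none was P1-enriched, against 0.856%. An unadjusted P under 0.05 was found for 2 (13.3%), near the 10.4% of the present genes, and 9 (60%) had a fold change below 0, against 48.7%, with a median of -0.05. The AB-enriched gene was *lem-3*, which encodes a LEM-domain nuclease that acts on chromatin bridges at the midbody. This call is therefore not of a component of the envelope or lamina, and no other gene of the list was called. It had 9548, 9751 and 8569 normalized read counts in AB and 1612, 4034 and 3020 in P1, with no overlap and a fold change of -1.69 (SE 0.27, adjusted P = 0.000884). *mel-28*, the orthologue of ELYS, which seeds pore assembly on chromatin, had 6249, 6182 and 6438 in AB and 1940, 4779 and 5231 in P1. Its groups did not overlap, but its fold change of -0.66 (SE 0.28, unadjusted P = 0.0238) had an adjusted P of 0.506. The lamin gene *lmn-1* was at -0.14, and *emr-1* (emerin) and *baf-1* at 0.62 and 0.47 without passing the test (adjusted P 0.672 and 0.655). The ratios of *emr-1* were 1.10, 0.14 and 0.05 in pairs 1, 2 and 3, and those of *baf-1* 1.06, 0.13 and 0.18, so both were high in pair 1.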

How the data were processed

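RNA-amp-seq libraries of AB and P1 (3 each) were analysed. Raw counts of reads for each gene model were deposited by the authors, made with Tagdust filtering, TopHat 1.4.0 alignment to ce10 and HTSeq 0.5.3 counting on RefSeq models of WS220. They also deposited normalized read counts, a signal in which each library's counts are divided by 1 DESeq size factor. Their own fold changes and P values were not used.

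Raw counts were tested with edgeR 4.0.16 in R 4.3.3 (glmQLFit, TMM, no block, Benjamini-Hochberg over 13717 gene models with at least 1 read). The procedure was tested on simulated counts. Tables and figures were made in Python 3.11.15. Standard errors and 95% intervals come from the same fit. P values measure the spread between pooled samples. Present genes with an adjusted P under 0.10 were called. Pair ratios are log2 of normalized read counts with a pseudocount of 1. Spliced lengths are those of the longest WBcel235 transcript, found for 98.3% of present genes, and no coordinate of that build is given. Protein sequences were not used here.

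Members and lists were chosen with earlier results of these data known. Each member is named, with values in every library for the main receptors, the Ran cycle, *npp-10*, *npp-21*, the highest and lowest levels and the 5 largest fold changes in each direction. *npp-9*, *nxt-1*, *lem-3* and *mel-28* were added after their values were seen. Pairing rests on the matched pooling of cells. Same-numbered libraries deviated together (r = 0.175, 0.220 and 0.173). Alternatives were DESeq2 1.42.0, other size factors, filters, pseudocounts and coding length, the replicate block and leaving out libraries or pairs.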

Additional observations from a re-analysis of the deposited data

How the results depend on the processing

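No member was called under any of the fits that kept all 6 libraries. With the replicate number as a block, 0 members were called in either direction, 3 (7.69%) had an unadjusted P under 0.05 (*npp-14*, *npp-15* and *npp-21*), against 11.1% of the present genes in that fit, and the median of the members was -0.19. The block turned 1 sign (*npp-8*, 0.025) and changed no call. Leaving out 1 library or 1 pair gave 0 to 2 AB-enriched members and 0 P1-enriched members. The count was 2 without P1 replicate 1 (*imb-1* and *npp-9*), where 279 of 7945 present genes were AB-enriched. It was 1 without pair 1 (*nxt-1*), where 239 of 7943 were AB-enriched. Over all fits that left out a library or pair, the median of the members ran from -0.25 to -0.062. That of nucleoporins ran from -0.38 to -0.11, and that of transport factors from -0.13 to 0.072. By role it ran from -0.60 to -0.17 (Y complex), -0.25 to 0.029 (inner ring), -0.24 to 0.073 (membrane), -0.44 to -0.21 (central channel), -0.58 to -0.082 (cytoplasmic side), -0.27 to -0.0030 (nuclear side), -0.23 to 0.17 (importin alpha), -0.31 to 0.041 (import receptors), -0.41 to -0.021 (export receptors), -0.0088 to 0.18 (Ran cycle) and -0.26 to 0.12 (mRNA export receptors). Taken from the line on length, the medians were 0.024 (transport factors), 0.00078 (inner ring), 0.076 (membrane), 0.070 (importin alpha), 0.049 (import receptors), 0.073 (export receptors) and -0.020 (Ran cycle), all of the opposite sign, and -0.21 (Y complex), -0.28 (central channel), -0.18 (cytoplasmic side), -0.054 (nuclear side) and -0.15 (mRNA export receptors).

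Of 351 member values that left out a library or pair, 26 changed sign, in 16 members, and 23 members, 16 of them nucleoporins, kept 1 direction in every fit. The ranges of the 16 were -0.45 to 0.080 (*npp-7*), -0.21 to 0.30 (*npp-8*), -0.86 to 0.32 (*npp-9*), -0.037 to 0.23 (*npp-16*), -0.18 to 0.0996 (*npp-19*), -0.27 to 0.050 (*npp-20*), -0.070 to 0.22 (*ima-2*), -0.35 to 0.26 (*ima-3*), -0.31 to 0.041 (*imb-2*), -0.17 to 0.063 (*xpo-2*), -0.41 to 0.18 (*xpo-3*), -0.069 to 0.23 (*ran-1*), -0.0024 to 0.13 (*ran-3*), -0.0088 to 0.18 (*ran-5*), -1.09 to 0.035 (*nxf-1*) and -0.50 to 0.12 (*nxt-1*). The causes were not tested. The counts of all present genes called depended more on the settings: 48 AB-enriched and 68 P1-enriched as reported, 75 and 95 with DESeq2, 25 and 27 with present genes only, and 26 and 27 with filterByExpr. They were 279 and 255 without P1 replicate 1, 215 and 284 without P1 replicate 2, and 141 and 143 without P1 replicate 3. Without 1 of the AB libraries they ran from 33 to 73 and from 44 to 118. Without pairs 1, 2 and 3 they were 239 and 293, 27 and 44, and 39 and 61.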

Other observations

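Other genes of mRNA export had a median close to 0, with estimates from -0.59 (*thoc-2*) to 0.38 (*dss-1*). Of these 11 genes, which include export adaptors, the THO complex, *ddx-19* and *dss-1*, 0 were called by edgeR. Among the present genes 0.604% were called AB-enriched and 0.856% P1-enriched. At an unadjusted edgeR P under 0.05 there were 0 of the 11, against 10.4% of the present genes. In all, 6 (54.5%, against 48.7% of the present genes) were below 0, with a median log2 fold change of -0.02. *hel-1*, the orthologue of the export helicase UAP56, had 40760, 35290 and 32566 normalized read counts in AB and 45824, 37233 and 30929 in P1. The groups overlapped, and its fold change was 0.06 (SE 0.25, adjusted P = 0.957). *thoc-2*, the largest THO subunit, had the lowest value, -0.59 (SE 0.30, adjusted P = 0.647), with ratios of -1.72 in pair 1 and -0.31 and -0.24 in pairs 2 and 3. Of 8 genes of the SUMO pathway, which modifies proteins at the pore among other places, 0 were called. At an unadjusted edgeR P under 0.05 there were 0 of the 8, against the same 10.4%. Lists this short cannot show that 0 lies below the shares of the present genes. Of the 8 genes, 6 (75%, against 48.7% of the present genes) were below 0, with a median of -0.12. *smo-1*, which encodes SUMO, was at 0.22 and *ulp-1*, a SUMO protease, at -0.47 (adjusted P 0.772 and 0.668).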
